A study of Mus musculus with 76 samples.

Results

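Genes of the synaptic vesicle and of regulated exocytosis were followed in the hippocampus of female mice, 1 array per mouse, on 76 arrays. They were chosen by name alone: genes whose single symbol in the array annotation begins as a synaptotagmin (Syt), Doc2, syntaxin (Stx), syntaxin binding protein (Stxbp), Vamp, complexin (Cplx), Rims, Unc13, synapsin, SV2 or Snap gene, with Stxbp6 left out. This gave 52 of the 11807 named genes, and each was read from its probe set of highest mean log2 signal. The rTg4510 mice held both a human tau transgene with a dementia mutation, under a TRE promoter, and the tetracycline transactivator (tTA) that drives it, itself under the CaMKIIα promoter and so limited to forebrain neurons. They were taken near 1.9 months (10 mice), 4.7 months (10) and 6.1 months (6) of age. tTA mice held only the transactivator and DN (double negative) mice no transgene, and each genotype gave 10 mice near 4.7 months, 10 near 6.1 months and 5 near 10.7 months. All were littermates bred from a TRE-htau line on FVB/N and a CaMKIIα-tTA line on another inbred strain, and neither mice with the tau transgene alone nor controls of 1.9 months were analysed here.

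Transmitter release depends on SNARE proteins that pair a vesicle with the plasma membrane and pull the membranes together. Syntaxin-1 and SNAP-25 sit on the target membrane and synaptobrevin (Vamp2) on the vesicle, syntaxin binding proteins and the Munc13 and RIM proteins ready the vesicle, and complexins and the calcium sensors of the synaptotagmin and Doc2 families time the fusion. Synapsins and SV2 proteins belong to the vesicle itself, and many relatives of these genes work at the Golgi apparatus, at endosomes or in cells other than neurons.

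The members divided into 15 target membrane SNAREs, 7 vesicle SNAREs, 3 syntaxin binding proteins, 4 complexins, 16 calcium sensors and their relatives, 2 priming and tethering factors, 4 vesicle phosphoproteins and SV2 proteins, and the clathrin adaptor Snap91. Mean log2 signals ran from 2.78 (Stx19) to 11.94 (Snap25), and 40 members lay above 5.34, the median of all probe sets. The other 12 members, among them Cplx3, Vamp5, Syt7 and Stxbp2, were dimmer, and signals of different probe sets cannot be ranked as amounts of RNA. All differences below are in log2 units, as mean ± SE from limma, and an adjusted p under 0.05 over all 22626 probe sets was called. Background shares are over all of these probe sets. Members and the other genes named were each read from the brightest probe set of the gene, so the sets differ in brightness. In whole hippocampus, fewer cells of a type and less RNA per cell cannot be told apart.

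RefSeq promoter windows of assembly GRCm38.p6, from 250 bases before to 50 after a start site, were at hand for 37 of the 52 members (48 windows). Those of Stx1a and Sv2a are shown because both genes were lower in rTg4510 than in tTA mice at 6.1 months and higher in tTA than in DN mice at that age, that of Stx6 because it was lower with the transactivator, and that of Vamp8 as the gene of largest rise. Capitals mark the letters TGACG (the core of a cAMP response element, CRE), GGGCGG (a GC box), CACGTG (an E box), TATAAA and CCAAT, searched on both strands.
Stx1a, chr5:135023232-135023531, + strand: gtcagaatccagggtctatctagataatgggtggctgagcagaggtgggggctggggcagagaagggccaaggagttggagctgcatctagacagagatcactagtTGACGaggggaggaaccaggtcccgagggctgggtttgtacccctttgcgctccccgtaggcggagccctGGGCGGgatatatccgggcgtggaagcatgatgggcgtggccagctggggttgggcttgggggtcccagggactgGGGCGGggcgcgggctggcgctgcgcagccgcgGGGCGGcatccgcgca
Sv2a, chr3:96180977-96181276, + strand: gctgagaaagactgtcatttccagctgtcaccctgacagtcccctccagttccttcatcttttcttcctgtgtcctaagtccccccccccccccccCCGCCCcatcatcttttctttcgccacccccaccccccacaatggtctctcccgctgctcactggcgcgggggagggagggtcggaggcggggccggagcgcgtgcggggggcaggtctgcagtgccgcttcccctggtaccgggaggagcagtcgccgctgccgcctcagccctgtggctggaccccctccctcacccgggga
Stx6, chr1:155158453-155158752, + strand: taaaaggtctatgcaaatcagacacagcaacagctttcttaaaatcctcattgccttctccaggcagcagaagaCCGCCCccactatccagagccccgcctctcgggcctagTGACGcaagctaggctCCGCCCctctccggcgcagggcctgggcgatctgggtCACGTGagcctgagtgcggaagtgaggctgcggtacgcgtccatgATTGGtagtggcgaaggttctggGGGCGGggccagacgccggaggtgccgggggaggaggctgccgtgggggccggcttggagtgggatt
Vamp8, chr6:72390618-72390917, - strand: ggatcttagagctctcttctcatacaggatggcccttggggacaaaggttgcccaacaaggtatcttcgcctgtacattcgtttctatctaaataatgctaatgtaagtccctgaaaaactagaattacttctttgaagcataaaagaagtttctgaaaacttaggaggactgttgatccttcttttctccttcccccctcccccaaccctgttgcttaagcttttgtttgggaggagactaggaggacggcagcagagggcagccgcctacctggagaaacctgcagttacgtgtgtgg
The Stx1a window held 3 GC boxes and 1 CRE core, the Sv2a window 1 GC box, and the Stx6 window 3 GC boxes with 1 CRE core, 1 E box and 1 CCAAT in the reverse direction, while none of these letters occurred in the Vamp8 window. The Stx1a, Sv2a and Stx6 windows contained 19, 17 and 20 CpG pairs and the Vamp8 window 5, against a median of 7 over all 32851 windows of this length. A GC box stood in 30 of the 48 member windows and in 35.7% of all windows, and a CRE core in 13 of the 48 and in 20.8% of all. An E box stood in 7 and in 7.15%, TATAAA in 2 and in 13.6%, and CCAAT in 17 and in 37.4%. These are descriptions of the letters, some members having several windows, and not of binding.

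Mutant tau on top of the transactivator was compared with the transactivator alone at 4.7 and 6.1 months. At 4.7 months 7 of the 52 members were called (13.5%), against 7.47% of all probe sets. The vesicle SNAREs Vamp8 and Vamp5 and the syntaxin binding protein Stxbp3 rose (3 members, background 4.47%). Doc2b, the synaptotagmins Syt5 and Syt13 and the complexin Cplx2 fell (4 members, background 3.0%). At 6.1 months 8 members were called (15.4%), against 12.6% of all probe sets, with Stxbp3 alone higher (background 5.54%) and 7 lower (background 7.08%). The 7 were Doc2b, Cplx3, Stx1a, Syt5, Sv2a, Syt13 and Syn1. The median difference over the 52 members was -0.014 at 4.7 and -0.033 at 6.1 months, beside -0.016 over all probe sets at both ages. Doc2b, Syt5, Syt13 and Stxbp3 were called at both ages. Leaving out rTg4510 mouse 44 brought the count at 4.7 months to 4, and leaving out rTg4510 mouse 7 or mouse 10 brought that at 6.1 months to 5. Omission of 1 mouse at a time ended the call of Cplx2 in 10 of 20 cases and that of Stxbp3 in 8 of 20 at 4.7 months, that of Cplx3 in 7 of 16 and that of Syn1 in 1 of 16 at 6.1 months, and that of Syt13 in 6 of 20 and 3 of 16.

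**Figure D1:**
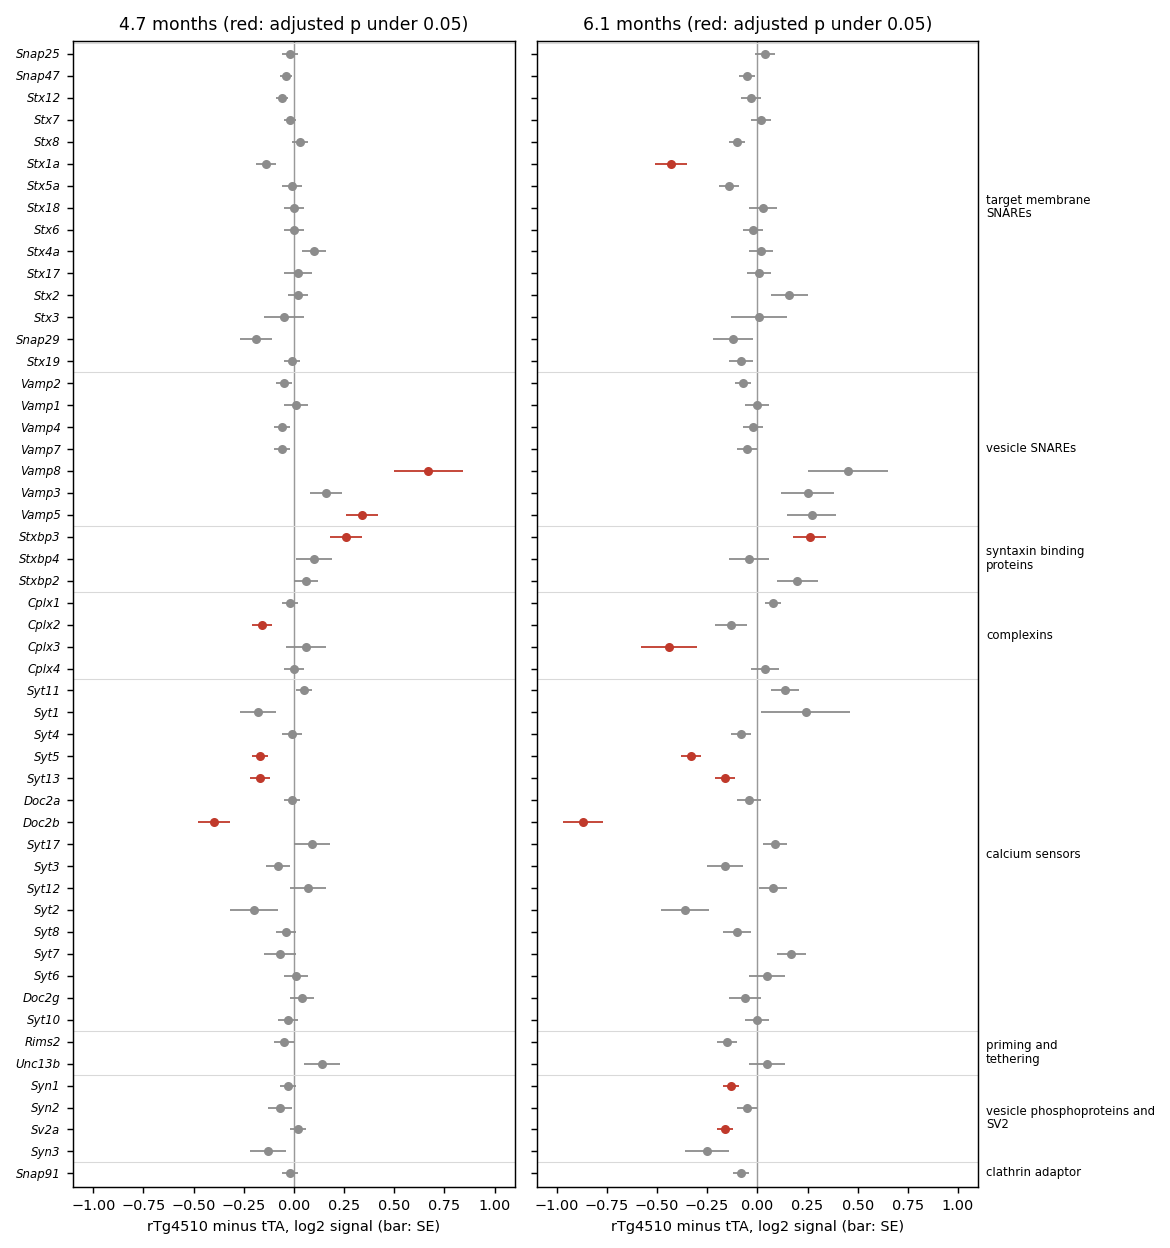
Difference of rTg4510 minus tTA mice in log2 signal (x axis) for the 52 exocytosis genes, grouped by role and ordered by mean signal, at 4.7 months (10 and 10 mice) and 6.1 months (6 and 10 mice). Points are mean differences, bars 1 SE, and red points passed an adjusted p of 0.05; most points lie close to 0, and Doc2b lies farthest to the left at both ages, at -0.40 and -0.87.

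Doc2b, a calcium sensor of high affinity linked to spontaneous and asynchronous release, had the largest fall among the members. At 4.7 months its log2 signal had a lowest, median and highest value of 6.98, 7.21 and 7.54 in tTA mice and of 6.22, 6.83 and 7.18 in rTg4510 mice. The groups overlapped, with 7 of 10 rTg4510 mice below every tTA mouse, and the difference was -0.40 ± 0.08 (adjusted p = 0.00239 by limma). At 6.1 months tTA mice ran from 6.92 through a median of 7.31 to 7.56 and rTg4510 mice from 5.90 through 6.54 to 6.74. The groups no longer overlapped, and the difference was -0.87 ± 0.10, a 1.83-fold lower signal (adjusted p = 6.66e-07 by limma). The second probe set of Doc2b gave -0.43 ± 0.08 and -0.70 ± 0.08 at the 2 ages.

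Among the other calcium sensors and their relatives, Syt5, a calcium-binding synaptotagmin, had medians of 8.25 in tTA and 8.06 in rTg4510 mice at 4.7 months. The ranges were 8.03 to 8.33 and 7.94 to 8.24. At 6.1 months the medians were 8.31 and 8.03, and the ranges 8.10 to 8.55 and 7.77 to 8.09. The ranges overlapped at the first age and were just apart at the second, and the differences were -0.17 ± 0.04 and -0.33 ± 0.05 (adjusted p = 0.00873 and 0.000118 by limma). Syt13, an atypical synaptotagmin without the calcium-binding residues, fell by 0.17 ± 0.05 and 0.16 ± 0.05 on the log2 scale (adjusted p = 0.0294 and 0.0251 by limma). The groups overlapped at both ages. Its medians were 7.88 in tTA and 7.77 in rTg4510 mice at 4.7 months and 7.80 and 7.63 at 6.1 months. The remaining 13 sensors and relatives were not called at either age. Syt1, the main sensor of fast release, differed by -0.18 ± 0.09 at 4.7 months and by 0.24 ± 0.22 at 6.1 months, and Syt17 by 0.09 at both ages. The wide error of Syt1 came with 1 array: tTA mouse 21 read 7.67, while the other 9 tTA mice of 6.1 months lay between 9.31 and 10.04. Without that mouse the Syt1 difference was 0.03 (adjusted p = 0.909 by limma).

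Of the target membrane SNAREs, only Stx1a was called, and only at 6.1 months. Stx1a encodes the neuronal plasma membrane syntaxin, and its promoter window is printed above. Its signal in tTA mice of 6.1 months ran from 8.44 through a median of 8.61 to 9.05 and in rTg4510 mice from 8.06 through 8.24 to 8.39. Every rTg4510 mouse lay below every tTA mouse, and the difference was -0.43 ± 0.08 (adjusted p = 0.000368 by limma). At 4.7 months it was -0.14 ± 0.05, with an adjusted p of 0.0957 by limma. Snap25, the partner of Stx1a in the fusion complex, differed by -0.02 ± 0.04 and 0.04 ± 0.05, with 95% confidence intervals of -0.11 to 0.06 and -0.05 to 0.14. The 15 genes of this role spanned -0.19 (Snap29) to 0.10 (Stx4a) at 4.7 months and, next to Stx1a, reached no further than 0.16 (Stx2) at 6.1 months.

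Of the 7 vesicle SNAREs, 2 rose at 4.7 months and none fell. Vamp8, which serves endosomes and secretion in many cells outside the nervous system, had a lowest, median and highest signal of 6.00, 6.23 and 7.03 in tTA and 6.41, 7.08 and 7.54 in rTg4510 mice of 4.7 months. In all, 5 of 10 rTg4510 mice exceeded every tTA mouse, and the difference was 0.67 ± 0.17 (adjusted p = 0.0109 by limma). At 6.1 months it was 0.45 ± 0.20 and was not called (adjusted p = 0.172 by limma). Vamp5, a dim member best known from muscle, ran from 4.00 through a median of 4.44 to 4.75 in tTA and from 4.54 through 4.74 to 4.91 in rTg4510 mice of 4.7 months, again with 5 of 10 rTg4510 mice above every tTA mouse. It rose by 0.34 ± 0.08 at that age (adjusted p = 0.0041 by limma) and differed by 0.27 ± 0.12 at 6.1 months. Vamp2, the synaptobrevin of central synapses, differed by -0.05 ± 0.04 and -0.07 ± 0.04, and Vamp1, its close relative, by 0.01 ± 0.06 and 0.00 ± 0.06. Vamp4, a SNARE of endosomes and the trans-Golgi network, differed by -0.06 ± 0.04 at 4.7 months, while the dimmest of its 3 probe sets fell by 0.17 ± 0.04 on the log2 scale (adjusted p = 0.0104 by limma). At 6.1 months limma called 0 vesicle SNAREs, with Vamp8 and Vamp5 at an unadjusted p of 0.0377 and 0.0305.

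Stxbp3 (Munc18c), which binds the syntaxins of widely used secretory routes, was higher in rTg4510 mice by 0.26 ± 0.08 at both ages (adjusted p = 0.0325 and 0.0375 by limma). Its values ran from 6.18 through a median of 6.41 to 6.78 in tTA and from 6.32 through 6.68 to 6.93 in rTg4510 mice at 4.7 months, and the medians were 6.52 and 6.73 at 6.1 months. The groups overlapped, with 4 of 10 and 2 of 6 rTg4510 mice above every tTA mouse. Its call at 6.1 months was lost without tTA mouse 21 (0.24, adjusted p = 0.061 by limma) and without any of 7 other mice. Stxbp2 and Stxbp4 were not called.

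Among the complexins, which clamp and promote the paired SNAREs, Cplx2 had medians of 10.36 in tTA and 10.19 in rTg4510 mice of 4.7 months. It fell by 0.16 ± 0.05 on the log2 scale at 4.7 months (adjusted p = 0.035 by limma) and differed by -0.13 ± 0.08 at 6.1 months. Cplx3, known from ribbon synapses of the retina and dim here, ran from 4.61 to 5.49 in tTA and 4.23 to 5.24 in rTg4510 mice of 6.1 months. The difference was -0.44 ± 0.14 at that age (adjusted p = 0.0325 by limma) and 0.06 ± 0.10 at 4.7 months. Group means of Cplx3 at 6.1 months were 4.67 in DN, 5.15 in tTA and 4.71 in rTg4510 mice, so rTg4510 mice were close to DN mice. Cplx1 differed by -0.02 ± 0.04 and 0.08 ± 0.04 from its brightest probe set, while the dimmest of its 3 probe sets rose by 0.30 ± 0.08 at 6.1 months (adjusted p = 0.00828 by limma). The vesicle proteins Sv2a, a glycoprotein of all synaptic vesicles, and Syn1, which links vesicles to the cytoskeleton, fell by 0.16 ± 0.04 and 0.13 ± 0.04 on the log2 scale at 6.1 months (adjusted p = 0.00804 and 0.0216 by limma). Sv2a values were 9.96 to 10.21 in tTA and 9.88 to 9.99 in rTg4510 mice, so 5 of 6 rTg4510 mice lay below every tTA mouse. Syn1 ran from 11.27 to 11.51 and from 11.19 to 11.38, with 1 of 6 below. Its lowest tTA value was that of mouse 21, and the other tTA mice lay between 11.39 and 11.51. Without that mouse the Syn1 difference was -0.149 (adjusted p = 0.00393 by limma). Syn2 differed by -0.07 ± 0.06 and -0.05 ± 0.05. Rims2 and Unc13b, which prime vesicles at the active zone, and Snap91, which brings clathrin to vesicle membrane, were not called.

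**Figure D2:**
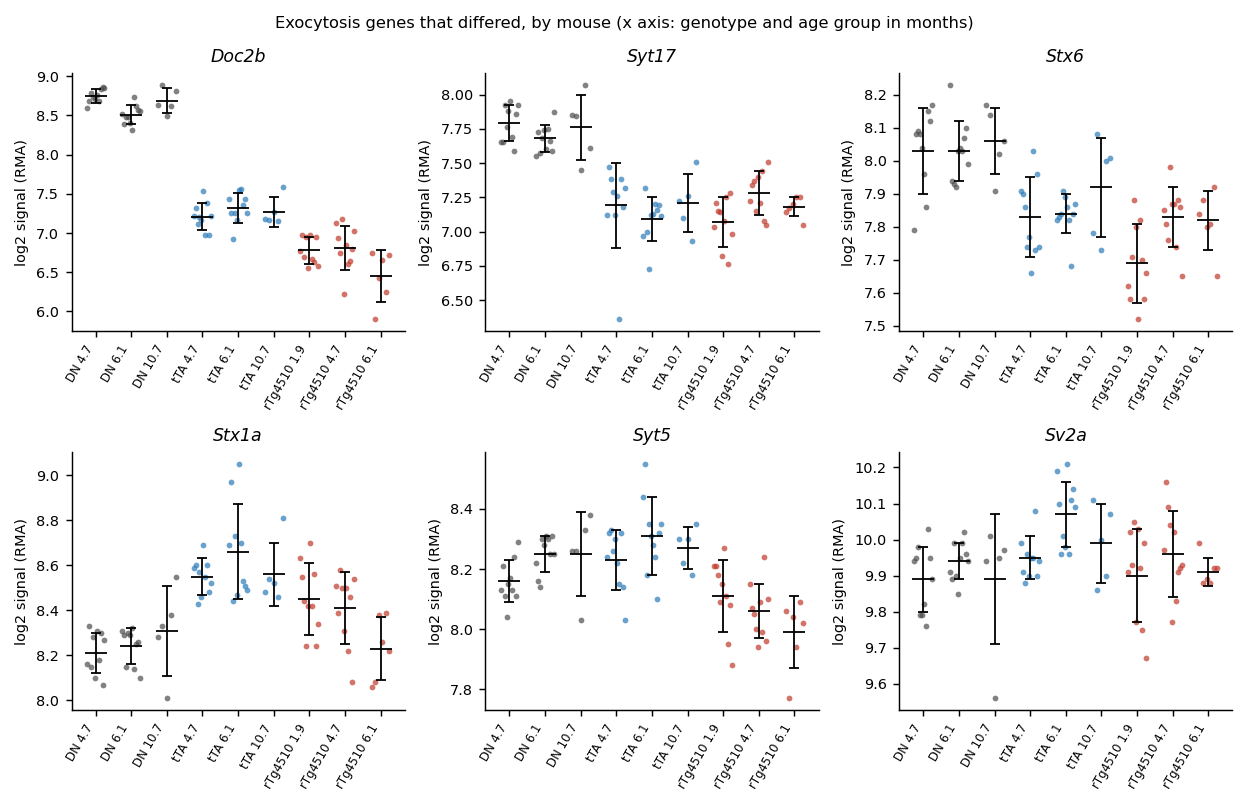
Log2 signal (y axis) of 6 exocytosis genes in each mouse, by genotype and age group in months (x axis), with the mean and SD of each group; grey is DN, blue tTA and red rTg4510. Doc2b falls in steps from DN (8.32 to 8.89) to tTA (6.92 to 7.59) to rTg4510 mice (5.90 to 7.18), Syt17 and Stx6 are lower in both transgenic genotypes, and Stx1a has its highest group means in tTA mice.

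Beside these calls, markers of several cell types differed between rTg4510 and tTA mice, and, choroid plexus markers apart, their part in the results was not tested. The 4 markers of CA1 pyramidal cells (Wfs1, Pou3f1, Lefty1 and Ccn3) were lower, 3 of them past the threshold at 4.7 months and 4 at 6.1 months. Their mean log2 signal ran from 8.39 to 8.72 in tTA and 7.62 to 8.51 in rTg4510 mice at 4.7 months, and from 8.48 to 8.77 and 7.21 to 7.84 at 6.1 months. All 10 activated microglia markers were higher at both ages, with means of 4.98 to 5.58 against 5.28 to 7.26 and 4.93 to 5.36 against 6.51 to 7.21. Of 12 general neuronal markers, 2 and 3 were lower and none higher, with group means of 9.70 and 9.62 at 4.7 months and 9.64 and 9.56 at 6.1 months. Of 7 astrocyte markers, 3 were higher at 4.7 and 7 at 6.1 months, with means of 8.96 to 9.43 in tTA and 9.05 to 9.66 in rTg4510 mice at the first age and of 8.83 to 9.11 and 9.40 to 9.75, without overlap, at the second. Of 6 oligodendrocyte markers, 2 and 1 were higher, and of 9 interneuron markers, 1 was lower at 4.7 months and 3 were higher and 1 lower at 6.1 months. Of 3 CA3 pyramidal markers, 1 was higher at 6.1 months. Of 7 dentate granule markers, 2 were lower at 4.7 months, and 1 was higher and 1 lower at 6.1 months. Of 6 vascular markers, 2 were higher at 6.1 months. Choroid plexus markers (7 measured, none called) varied widely among mice of one group. At 4.7 months their mean log2 signal ran from 4.25 to 8.21 in tTA and 4.36 to 8.68 in rTg4510 mice. The group means were 5.4 and 7.1 at that age and 6.49 and 7.31 at 6.1 months, higher in rTg4510 mice. The median marker differences were 1.62 and 0.79. After adjustment for the choroid plexus score, the members called at 4.7 months numbered 1, Doc2b at -0.37 (adjusted p = 0.0219 by limma), and Vamp8, Vamp5 and Stxbp3 read 0.28, 0.25 and 0.17 (adjusted p = 0.108, 0.0639 and 0.301 by limma). At 6.1 months the same adjustment left 5 members called, Doc2b, Stx1a, Syt5, Sv2a and Syn1, at -0.86, -0.38, -0.31, -0.17 and -0.12.

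The transactivator alone was compared with neither transgene at 3 ages. Against DN mice, tTA mice had 5 members called at 4.7 months (background 3.98%), 2 higher (background 1.35%) and 3 lower (background 2.63%). At 6.1 months 8 were called (background 5.25%), 4 higher (background 2.13%) and 4 lower (background 3.12%), and at 10.7 months, with 5 mice a group, Doc2b alone (background 0.875%). The count at 10.7 months was 2 without the DN mouse that read 9.56 for Sv2a, or without the tTA mouse that read 7.59 for Doc2b. Doc2b and Syt17 were lower, and Stx6 lower by less, at 4.7 and 6.1 months, while Stx1a was higher at both. The medians over the members were -0.008, 0.008 and 0.016 at the 3 ages, beside -0.001 over all probe sets each time.

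Doc2b in DN mice ran from 8.59 through a median of 8.75 to 8.87 at 4.7 months and from 8.32 through 8.50 to 8.74 at 6.1 months. At 10.7 months the 5 DN mice read 8.63, 8.89, 8.49, 8.62 and 8.81, and the 5 tTA mice 7.18, 7.16, 7.27, 7.15 and 7.59. No tTA mouse reached the lowest DN mouse of its age. The differences of tTA minus DN mice were -1.54 ± 0.08, -1.19 ± 0.09 and -1.42 ± 0.10, signals 2.91, 2.28 and 2.67-fold lower (adjusted p = 1.48e-14, 3.26e-10 and 1.28e-05 by limma). The second probe set gave -1.39, -1.19 and -1.43.

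Syt17, an atypical synaptotagmin of intracellular membranes, ran from 7.59 through 7.81 to 7.95 in DN and from 6.36 through 7.28 to 7.47 in tTA mice at 4.7 months, and from 7.55 through 7.67 to 7.87 and 6.73 through 7.13 to 7.32 at 6.1 months. The groups did not overlap at either age, and the differences were -0.60 ± 0.09 and -0.58 ± 0.05 (adjusted p = 4.81e-05 and 2.27e-08 by limma). At 10.7 months it was -0.56 ± 0.12 and missed the threshold (adjusted p = 0.0615 by limma). The 5 DN mice of that age read 7.85, 7.84, 7.45, 8.07 and 7.61 and the 5 tTA mice 7.22, 7.10, 7.26, 6.93 and 7.51, so that 4 of 5 tTA mice lay below every DN mouse.

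Stx6, a SNARE of the trans-Golgi network and endosomes, ran from 7.79 through 8.08 to 8.17 in DN and from 7.66 through 7.82 to 8.03 in tTA mice at 4.7 months, and from 7.92 through 8.03 to 8.23 and 7.68 through 7.84 to 7.91 at 6.1 months. The groups overlapped at the first age and were apart at the second. The differences were -0.20 ± 0.05 and -0.19 ± 0.04 (adjusted p = 0.0146 and 0.00239 by limma), and at 10.7 months -0.14, which was not called. Its 3 other probe sets were called at 6.1 months as well (-0.20, -0.23 and -0.18) but not at 4.7 months (-0.15, -0.10 and -0.17).

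In the opposite direction, Stx1a ran from 8.07 through 8.22 to 8.33 in DN and from 8.43 through 8.56 to 8.69 in tTA mice at 4.7 months, and from 8.10 through 8.27 to 8.32 and 8.44 through 8.61 to 9.05 at 6.1 months. Every tTA mouse exceeded every DN mouse at both ages, and the differences were 0.34 ± 0.05 and 0.42 ± 0.07 (adjusted p = 5.1e-05 and 0.000179 by limma). At 10.7 months DN mice read 8.28, 8.33, 8.01, 8.38 and 8.55 and tTA mice 8.48, 8.54, 8.52, 8.46 and 8.81. The groups overlapped, and the difference of 0.25 ± 0.10 was not called (adjusted p = 0.455 by limma). Syt13, from 7.51 to 7.79 in DN and 7.79 to 8.12 in tTA mice, rose by 0.27 ± 0.05 at 4.7 months (adjusted p = 0.000826 by limma) and differed by 0.10 ± 0.04 at 6.1 months. At 6.1 months Cplx3 rose by 0.48 ± 0.12, Sv2a by 0.13 ± 0.04 and the Golgi syntaxin Stx5a by 0.16 ± 0.05, and the dim Syt7, a sensor of asynchronous release, differed by -0.21 ± 0.06 (adjusted p = 0.0118, 0.0225, 0.0461 and 0.0373 by limma). Of the other probe sets of Stx5a, all dimmer, the brightest gave -0.05 and was not called, and the calls of Stx5a and Syt7 ended in 12 and 10 of 20 omissions of 1 mouse.

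**Figure D3:**
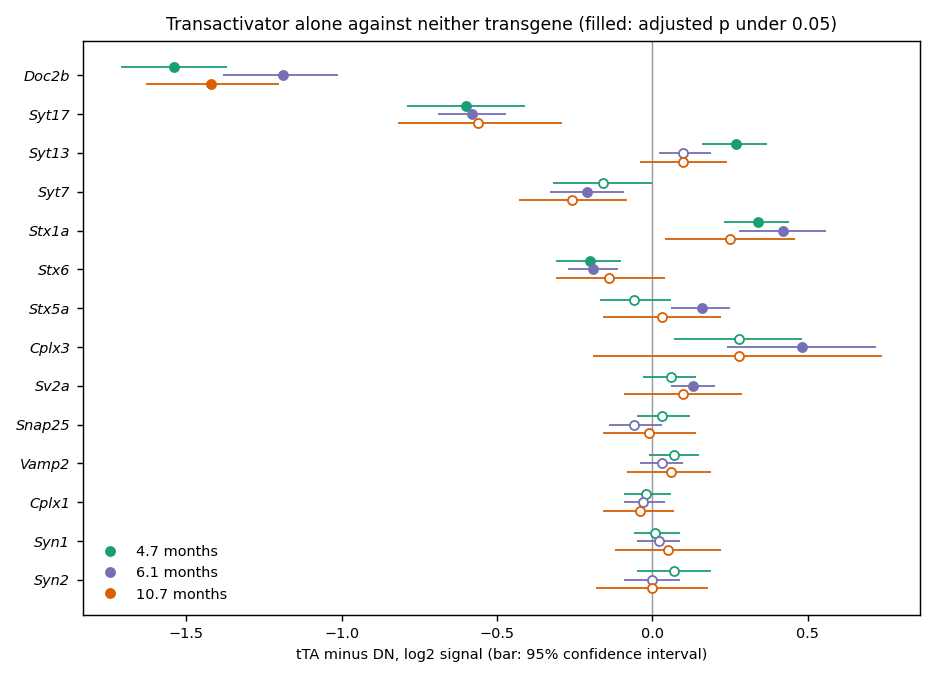
Difference of tTA minus DN mice in log2 signal (x axis) for the 9 members called at any age and for 5 fusion and vesicle genes, at 4.7, 6.1 and 10.7 months (10, 10 and 5 mice a group). Bars are 95% confidence intervals and filled points passed an adjusted p of 0.05. Doc2b lies at -1.54, -1.19 and -1.42 and Syt17 near -0.6, while Snap25, Vamp2, Cplx1, Syn1 and Syn2 lie within 0.07 of 0. Vamp1, Syt1 and Cplx2 of the same machinery are not shown.

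Markers of dentate granule cells, CA3 pyramidal cells and other types differed in this comparison, and their part in it was not tested. Of 7 dentate granule markers, 5 were lower and 1 higher (Tdo2) at 4.7 months and 6 were lower at 6.1 months, with median differences of -1.01 and -1.13. Their mean log2 signal ran from 6.30 to 6.79 in DN and 5.77 to 6.11 in tTA mice at 4.7 months and from 6.53 to 6.76 and 5.60 to 5.88 at 6.1 months. Prox1, C1ql3, Dsp, Trpc6 and Stxbp6, the gene left out of the members, were lower at both ages, Stxbp6 at -1.05 and -1.13. Of 3 CA3 markers, Nectin3 and Bok were lower at 4.7, 6.1 and 10.7 months, Nectin3 at -0.22, -0.42 and -0.44 and Bok at -0.49, -0.56 and -0.73. The CA3 means ran from 8.16 to 8.37 in DN and 7.88 to 8.25 in tTA mice at 4.7 months and, without overlap, from 8.11 to 8.28 and 7.81 to 7.97 at 6.1 months. Of the 4 CA1 markers, limma called 0 at 4.7 months and 1 at 6.1 months (Ccn3, -0.29), with median differences of -0.08 and -0.04.

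rTg4510 mice set against DN mice carry both differences at once, and this comparison shares its groups with those above. At 4.7 months 11 members were called (background 13.3%), 5 higher (background 6.51%) and 6 lower (background 6.83%), and at 6.1 months 8 (background 17%), 3 higher (background 7.17%) and 5 lower (background 9.85%). Doc2b differed by -1.94 ± 0.08 and -2.06 ± 0.10, signals 3.84 and 4.18-fold lower (adjusted p = 1.8e-17 and 1.49e-14 by limma). Syt17 differed by -0.51 ± 0.09 and -0.50 ± 0.06 and Stx6 by -0.21 at both ages, and no rTg4510 mouse reached the DN range of Syt17 at either age. Stx1a was higher by 0.19 ± 0.05 at 4.7 months (adjusted p = 0.00972 by limma) and differed by -0.01 ± 0.08 at 6.1 months, with a 95% confidence interval of -0.17 to 0.15. Sv2a was also close to DN mice at 6.1 months (-0.03 ± 0.04), whereas Syt5 (-0.27 ± 0.05) and Syn1 (-0.11 ± 0.04) were lower than in DN mice too. Vamp8 was higher by 0.59 ± 0.17 and 0.58 ± 0.20 (adjusted p = 0.0159 and 0.0472 by limma) and Stxbp3 by 0.25 ± 0.08 and 0.27 ± 0.08. Besides Stx1a, the members called at 4.7 and not at 6.1 months were Cplx2 (-0.23), Syt7 (-0.24), Doc2a (-0.12), Syt11 (0.19) and Cplx3 (0.34). Besides Syt5 and Syn1, the member called at 6.1 and not at 4.7 months was Stxbp2 (0.28). The choroid plexus score ranged from 4.20 to 8.44 in DN and 4.36 to 8.68 in rTg4510 mice at 4.7 months. At 6.1 months it ranged from 4.64 to 7.96 and 4.75 to 8.76. Its group means were 5.87 in DN and 7.1 in rTg4510 mice at 4.7 months and 6.46 and 7.31 at 6.1 months. After adjustment for this score Vamp8 read 0.30 and 0.34 (adjusted p = 0.0227 and 0.000938 by limma). The same adjustment ended the calls of Stxbp3 at both ages (0.19 and 0.22, adjusted p = 0.111 and 0.0512 by limma), of Syt7 at 4.7 months (adjusted p = 0.0579 by limma) and of Syn1 at 6.1 months (adjusted p = 0.0874 by limma). Markers of CA1 and dentate granule cells were lower in rTg4510 than in DN mice (4 of 4 and 6 of 7 at both ages) and those of activated microglia (10 of 10 at both ages) and astrocytes (5 and 7 of 7) higher, and their part in these results was not tested. The calls of Vamp8, Stxbp2 and Syn1 at 6.1 months were lost in 12, 12 and 11 of 16 omissions of 1 mouse. The count at 6.1 months was 4 without rTg4510 mouse 7 and 5 without any one of rTg4510 mice 10 and 11 or DN mice 28, 29, 78 and 80.

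Members of the core fusion machinery were also read together, in rTg4510 against tTA mice and in tTA against DN mice. As a core of central release, 10 members were grouped (Snap25, Stx1a, Vamp1, Vamp2, Syt1, Cplx1, Cplx2, Syn1, Syn2 and Sv2a). At 4.7 months the differences of the 10 between rTg4510 and tTA mice ran from -0.18 to 0.02. Cplx2 was called, 1 of the 10, beside 7.47% of all probe sets. At 6.1 months the differences ran from -0.43 to 0.24. Stx1a, Syn1 and Sv2a were called, 3 of the 10, beside 12.6% of all probe sets. Between tTA and DN mice the differences of the 10 ran from -0.13 to 0.34 at 4.7 months, with 1 called (background 3.98%). At 6.1 months they ran from -0.3 to 0.42, with 2 called (background 5.25%). At 10.7 months they ran from -0.16 to 0.25, with 0 called (background 0.875%). Group means of Syt1 at 6.1 months were 9.57 in tTA mice, mouse 21 at 7.67 included, and 9.87 in DN mice. Snap25 lay between 11.68 and 12.28 in all 76 mice, and its group means between 11.89 and 11.98. Group means of Vamp2 lay between 10.34 and 10.46. The difference of Vamp2 between rTg4510 and tTA mice at 6.1 months had a 95% confidence interval of -0.15 to 0.01, and a p that misses the threshold does not show that levels were alike.

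**Figure D4:**
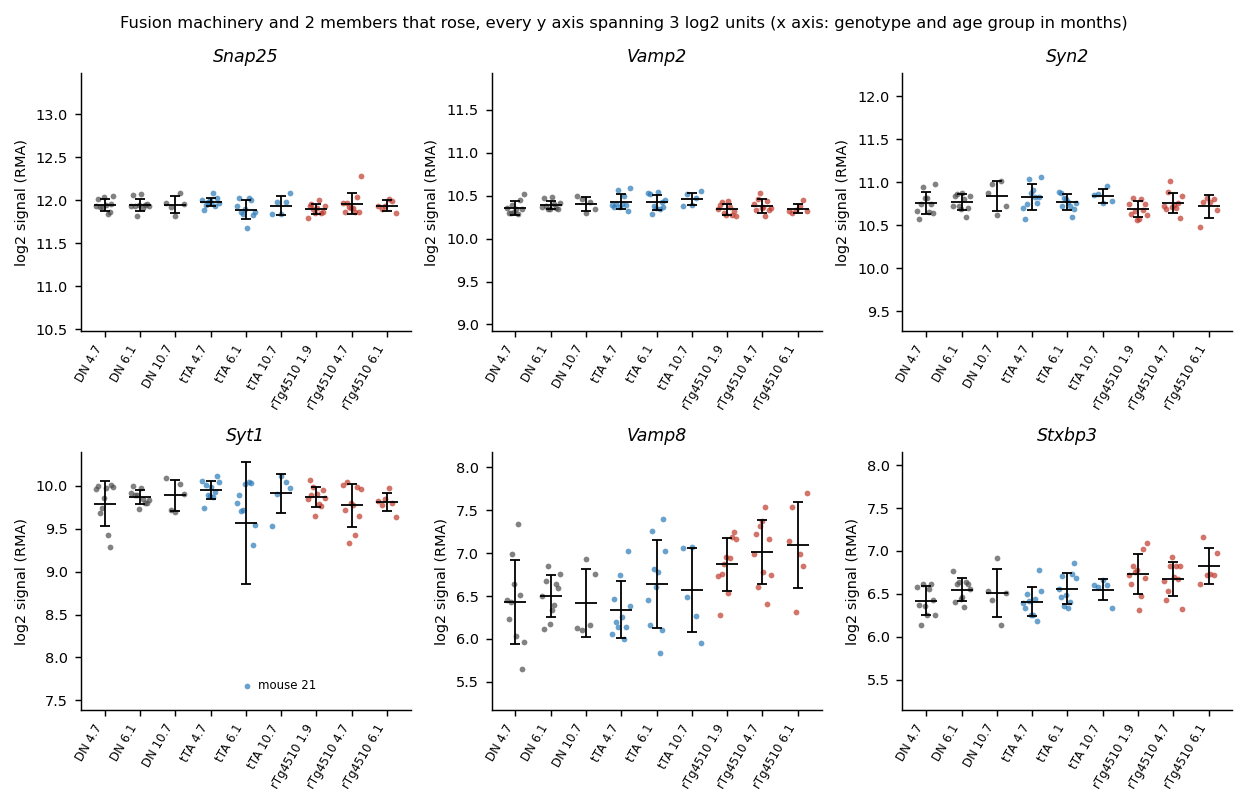
Log2 signal (y axis, each panel spanning 3 units) of Snap25, Vamp2, Syn2 and Syt1 and of 2 members that rose, Vamp8 and Stxbp3, in each mouse by genotype and age group in months (x axis), with mean and SD; grey is DN, blue tTA and red rTg4510. Group means of Snap25 stay between 11.89 and 11.98, Syt1 is at 7.67 in tTA mouse 21, and Vamp8 and Stxbp3 are spread over mice of every group.

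Age was asked within each genotype. In rTg4510 mice 3 of 52 members changed over 1.9, 4.7 and 6.1 months (background 2.54%). Unc13b (Munc13-2), a priming factor, rose from a mean of 6.75 at 1.9 months to 7.16 at 4.7 months and then differed by -0.16 ± 0.11 from 4.7 to 6.1 months (0.25 ± 0.11 from first to last age, adjusted p = 0.028 by limma's F test). Syt4, a synaptotagmin of dense-core vesicles, rose from 9.15 to 9.31 and 9.32 (0.17 ± 0.05, adjusted p = 0.0413 by limma's F test), and Vamp3, which serves recycling endosomes, fell from 6.15 to 5.84 and 5.91 (-0.24 ± 0.08, adjusted p = 0.0355 by limma's F test). For these 3 genes the step lay between 1.9 and 4.7 months, a span for which no control mice were analysed. A change of age alone and one of genotype therefore cannot be told apart here. Over the same ages in these mice 5 of 6 oligodendrocyte markers were lower (median -0.32), 9 of 10 activated microglia markers higher (median 0.94) and 3 of 4 CA1 markers lower (median -0.66). The oligodendrocyte means ran from 9.69 to 10.21 at 1.9 months, 9.37 to 9.81 at 4.7 months and 9.45 to 9.68 at 6.1 months, and the part of these markers was not tested. The count fell to 0 or 1 without any one of 9 mice (1.9 month mice 81, 85, 86, 88 and 90, 4.7 month mice 39, 41 and 42, and 6.1 month mouse 10). Doc2b in rTg4510 mice had means of 6.78, 6.81 and 6.45, a difference of -0.33 ± 0.12 that was not called (adjusted p = 0.188 by limma's F test), while its second probe set fell by 0.43 ± 0.10 on the log2 scale (adjusted p = 0.0352 by limma's F test).

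In tTA and DN mice over 4.7, 6.1 and 10.7 months, limma's F test called 0 members in each (background 0.243% and 0.305%), with 4 and 3 at an unadjusted p under 0.05. Without tTA mouse 22, or without DN mouse 29, DN mouse 55 or the DN mouse of 10.7 months that read 9.56 for Sv2a, it called 1. The lowest adjusted p were 0.0765 for Cplx3 in tTA mice and 0.0676 for Doc2b in DN mice. The change of the rTg4510 minus tTA difference from 4.7 to 6.1 months was called for 0 members and 0 probe sets (background 0.00%) by limma, with 7 members and 1599 probe sets (7.07%) at an unadjusted p under 0.05. The lowest unadjusted p among members belonged to Doc2b (-0.47 ± 0.16, p = 0.00509, adjusted p = 0.555 by limma), followed by Cplx3 (-0.50 ± 0.17), Sv2a (-0.18 ± 0.06) and Stx1a (-0.29 ± 0.11). The larger differences at 6.1 months were thus not shown to differ from those at 4.7 months.

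Other genes of the release cycle were read from 5 lists, with 77 of 101 genes measured. Between rTg4510 and tTA mice 3 rose and 5 fell at 4.7 months (10.4%, beside 7.47% of all probe sets), and 4 rose and 16 fell at 6.1 months (26%, beside 12.6% of all probe sets), with median differences of -0.028 and -0.052. Of 14 active zone and Rab3 genes, 2 fell at 4.7 and 4 at 6.1 months. These were led by Cadps2 (CAPS2), which promotes dense-core vesicle release, at -0.29 ± 0.07 and -0.56 ± 0.04 (adjusted p = 0.00586 and 3.06e-11 by limma), and Lin7b at -0.21 and -0.37, while Cadps (-0.02 and 0.02) and Bsn (-0.06 and 0.19) were not called. Of 13 vesicle membrane and transmitter loading genes, 2 rose at 4.7 months, and 3 rose and 4 fell at 6.1 months. Syngr2, a synaptogyrin found in many tissues, rose by 0.64 and 0.53, and Syp, the vesicle protein synaptophysin, read -0.06 and -0.13, past the threshold at 6.1 months.

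Of 20 genes of SNARE disassembly and trafficking, 1 rose and 1 fell at 4.7 months and 1 rose and 3 fell at 6.1 months. Sytl4, a Rab27 effector of granules, was at -0.37 and -0.46 and passed the threshold at both ages, Snapin, which binds SNAP-25, rose by 0.17 and 0.31, and Nsf, which takes spent SNARE complexes apart, read -0.05 at both ages and was not called. Of 21 vesicle endocytosis genes, 2 and 4 fell and none rose, with Itsn2 at -0.22 and -0.32 and Pacsin1 at -0.15 and -0.20. Of 9 presynaptic adhesion genes, none was called at 4.7 months and Ptprd alone fell at 6.1 months (-0.26). Between tTA and DN mice 2 of the 77 rose and 7 fell at 4.7 months and 4 rose and 5 fell at 6.1 months (11.7% at both ages, beside 3.98% and 5.25% of all probe sets). There Nptx1, a neuronal pentraxin, was at -0.41 and -0.50, Ppfia4 (liprin-α4) at -0.34 and -0.29, and Rab27b, a vesicle GTPase, at -0.31 and -0.36.

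Spread between mice of one group was small for most members. The median within-group SD was 0.12 over the 52 members and 0.13 over all genes, from 0.06 in Cplx1 and 0.07 in Vamp2 and Snap47 to 0.31 in Syt1 and 0.40 in Vamp8. In the tTA mice of 6.1 months, mouse 21 was the lowest of the 10 for 11 members and the highest for 9. Among them were the lowest Snap25 (11.68) and Vamp3 (4.63) and the highest Stx1a (9.05) and Sv2a (10.21). No other mouse of the group was at an extreme for as many members. Mouse 22 was lowest for 10 and highest for 5, and mouse 13 lowest for 5 and highest for 10. The rest had fewer, such as mouse 20, lowest for 3 and highest for 2. Without mouse 21 the members called in rTg4510 against tTA mice at 6.1 months numbered 7, and Stx1a read -0.39 (adjusted p = 0.000341 by limma).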

How the data were processed

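Total RNA of 76 female hippocampi was purified on RNeasy columns, amplified with the Ovation Pico WTA System and hybridised to Affymetrix HT-MG-430A arrays. The authors deposited RMA signals, for which background is corrected and array distributions are made equal, so that a shift common to all genes is removed. The methods name an anti-log RMA, and the log2 scale used here was inferred from the range of the deposited values. Without 90 control probe sets, 22626 were tested. Symbols came from the array annotation, updated through RefSeq.

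Each comparison was fitted in limma 3.58.1 (R 4.3.3) with a mean per group: the 3 genotypes of an age together, tTA and DN at 10.7 months, an F test over ages within a genotype, and the difference between ages of rTg4510 minus tTA. Tests were two-sided, with Benjamini-Hochberg adjustment over all probe sets at 0.05, and tested on simulated data. Tables and plots used Python 3.11.15, pandas 2.3.3 and matplotlib 3.10.9. Members, lists and alternatives were chosen with earlier results of these data known. Full statistics were given for members called at both ages in rTg4510 against tTA, up to 5 of largest rise and fall in each comparison, and a core set. All 76 arrays were kept, although the study dropped an outlying tTA array of 6.1 months that may be among them. The number of arrays limits precision.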

Additional observations from a re-analysis of the deposited data

Results flagged for a closer look

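In 234 sets of a named member and a group of mice, 19 sets held a mouse past Dixon's 95% critical value for its group. The value compared was the gap to the nearest neighbour divided by the range of the group. Chance gives about 1 in 20, or 11.7. The same mice recur across sets, so the sets are not independent, and 19 against 11.7 was not tested. In tTA mice of 6.1 months, mouse 21 stood apart low for Syt1 (7.67, nearest 9.31), Vamp3 (4.63, nearest 5.51), Syn1 (11.27) and Syt11 (10.49), and mouse 14 low for Stx6 (7.68). In DN mice of 10.7 months, 1 mouse was low for Sv2a (9.56), Syn1 (11.13) and Syt4 (9.02), and another low for Syt13 (7.61).

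In tTA mice of 10.7 months, 1 mouse was high for Doc2b (7.59) and Stx1a (8.81) and low for Stxbp3 (6.34), and another was low for Syt7 (3.36). In tTA mice of 4.7 months, mouse 60 was low for Syt17 (6.36, nearest 7.12) and Cplx2 (10.10), mouse 65 high for Syt7 (3.99) and mouse 61 high for Sv2a (10.08). In rTg4510 mice, mouse 37 of 4.7 months was high for Snap25 (12.28) and mouse 7 of 6.1 months low for Vamp1 (8.69). What set these mice apart was not tested.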

How the results depend on the processing

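The counts of members called were recomputed under up to 10 other settings, and 89 of 101 counts stayed within 1.5 times the reported one. After adjustment for the choroid plexus score, rTg4510 against tTA gave 1 at 4.7 and 5 at 6.1 months, and age within tTA 1. With only the compared groups in the fit, rTg4510 against tTA at 6.1 months gave 4. For tTA against DN at 6.1 months, all 9 groups in the fit gave 5, as did leaving out the mice numbered 75 and above, and at 10.7 months brighter probe sets, centred arrays and all 9 groups in the fit gave 2 each. The plain linear model gave 1 for age within rTg4510, and age within DN gave 1 with brighter probe sets and with centred arrays. In each case the cause was not tested.

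Leaving out each array in turn gave 4 to 7 members for rTg4510 against tTA at 4.7 months and 5 to 11 at 6.1 months (11 without rTg4510 mouse 75), 9 to 12 and 4 to 9 against DN, and 5 to 7, 6 to 8 and 1 to 2 for tTA against DN at the 3 ages. Age gave 0 to 3 in rTg4510, 0 to 1 in tTA and 0 to 1 in DN mice, and the change of the difference between ages 0 to 0. Of 50 called differences of named members, 32 stayed called whichever array was left out, among them every one of Doc2b, Syt17, Stx1a, Stx6 and Syt5.

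Among 576 values of named members under other settings, 56 lost their call and 11 changed sign, 1 of them a called one. That one was Stx5a in tTA against DN at 6.1 months, -0.048 from another probe set. The rest were small differences of rTg4510 minus tTA. At 4.7 months they were Cplx1 at 0.018 with the choroid plexus score and 0.008 from another probe set, Sv2a at -0.007 and Vamp1 at -0.017 with centred arrays, Vamp1 at -0.015 from another probe set, and Syn1 at 0.007 with the score. At 6.1 months they were Syn2 at 0.050 and Vamp2 at 0.188 from other probe sets, and Vamp1 at -0.030 with centred arrays and -0.003 without mice numbered 75 and above. With arrays left out in turn, Cplx1 ran from -0.036 to 0.002, Sv2a from -0.004 to 0.038 and Vamp1 from -0.018 to 0.034 at 4.7 months, and Syn2 from -0.068 to 0.000 and Vamp1 from -0.026 to 0.064 at 6.1 months. No paired analysis was possible because mouse numbers are unique to a mouse and no group shares one with another.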
